A study of Mus musculus with 14 samples.

Results

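The miR-17-92 cluster is a group of microRNAs (miRNAs) that are cut from one primary transcript. Its mature miRNAs were followed in small extracellular vesicles (sEVs), the small membrane particles that cells release, from mouse neutrophils. The members were the 10 listed names of mature miRNAs from the cluster on chromosome 14 that are headers of the count table, out of 1695 names in all: mmu-miR-17-5p, mmu-miR-17-3p, mmu-miR-18a-5p, mmu-miR-18a-3p, mmu-miR-19a-3p, mmu-miR-19b-3p, mmu-miR-20a-5p, mmu-miR-20a-3p, mmu-miR-92a-3p and mmu-miR-92a-1-5p. The prefix mmu, for mouse, is left out from here on. They were chosen by name and genome position and not by their values, although earlier results of these data were known. The question asked of them was whether members of one primary transcript moved together.

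The vesicles were collected with a commercial SBI kit from primary neutrophils, taken as Ly6G+ cells from bone marrow of wild-type (WT) BALB/c female mice. For 48 h the cells were exposed to DMSO, the solvent, in 7 libraries and to 10 µM 27HC in the other 7. 27HC stands for 27-hydroxycholesterol, an oxysterol made from cholesterol. In the labels the groups differ only in this treatment, and no genetic change is named for either. The labels give no age of the mice. The study, by its title, concerns the effect of such vesicles on breast cancer cells. The labels number the libraries 1 to 7 in each group but do not say that they came from separate mice or cultures, so p-values measure the spread between these libraries, which may in part be technical.

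A miRNA is cut from a hairpin in a longer primary transcript, first in the nucleus by Drosha and then in the cytoplasm by Dicer, which leaves a 5p and a 3p arm. One arm is usually kept in the silencing complex and the other is lost. A miRNA pairs with messenger RNAs mainly through its seed, bases 2 to 8 from the 5′ end, and members with the same seed repress overlapping targets. The miR-17-92 cluster is transcribed under MYC and E2F, is needed for normal B cell development and is known as an oncogenic cluster, often called oncomir-1. Among its known targets is Bcl2l11 (Bim), a promoter of cell death, for several members. In blood formation the cluster is high in progenitors and falls as monocytes mature.

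The mature sequences show how the members divide into seed families. They were read from the RefSeq table of assembly GRCm38.p6, in which all 10 members were matched, and the capitals mark the seed.
miR-17-5p: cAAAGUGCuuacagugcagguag
miR-20a-5p: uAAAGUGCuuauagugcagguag
miR-18a-5p: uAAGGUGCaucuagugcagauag
miR-19a-3p: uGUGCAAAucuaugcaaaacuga
miR-19b-3p: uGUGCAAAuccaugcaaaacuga
miR-92a-3p: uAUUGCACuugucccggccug
miR-17-3p: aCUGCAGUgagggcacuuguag
miR-18a-3p: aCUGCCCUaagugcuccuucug
miR-20a-3p: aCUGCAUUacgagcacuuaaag
miR-92a-1-5p: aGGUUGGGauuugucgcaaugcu

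miR-17-5p and miR-20a-5p share the seed AAAGUGC and differ by C1U and C12U (positions from the 5′ end, miR-17-5p first). miR-19a-3p and miR-19b-3p share the seed GUGCAAA and differ only by U11C (miR-19a-3p first), so counts of these neighbours depend on a single base, and how the authors' counting handled reads with an error there is not given in the sources used here. miR-18a-5p has a seed of its own, AAGGUGC. miR-92a-3p carries AUUGCAC, a seed no other member has. The last 4 sequences are the opposite arms of the hairpins of miR-17, miR-18a, miR-20a and miR-92a-1.

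The 6 hairpins lie on the + strand of chromosome 14 (GRCm38.p6), at 115043671 to 115043754 (Mir17), 115043851 to 115043946 (Mir18), 115044000 to 115044081 (Mir19a), 115044157 to 115044263 (Mir20a), 115044305 to 115044391 (Mir19b-1) and 115044427 to 115044506 (Mir92-1). They span 836 bases. In the GENCODE M21 annotation all 6 fall in one exon (115043271 to 115046727) of Mir17hg, a non-coding RNA gene at 115042879 to 115046727. The first and the last hairpin show the layout, with the mature arms in capitals.
Mir17: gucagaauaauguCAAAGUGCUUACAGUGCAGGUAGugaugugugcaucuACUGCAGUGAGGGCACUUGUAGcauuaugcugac
Mir92-1: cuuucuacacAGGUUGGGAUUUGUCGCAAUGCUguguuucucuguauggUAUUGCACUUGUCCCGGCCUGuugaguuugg

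Not every count of these names need come from chromosome 14. RefSeq places the same mature sequences of miR-19b-3p and miR-92a-3p also in Mir19b-2 and Mir92-2 on the − strand of chromosome X, at 52741983 to 52742066 and 52741838 to 52741928. A count of miR-19b-3p or miR-92a-3p therefore cannot be assigned to one of these loci. The other members, miR-17-5p, miR-18a-5p, miR-19a-3p and miR-20a-5p among them, each had 1 place in the table.

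Library totals ran from 112914 to 871189 counts, so that the limit for a name with 0 counts, set at 3 counts, stood for 3.44 to 26.6 counts per 1000000 (CPM). Of the 1695 names, 239 had enough counts to be tested, and these held 99.4% of all counts. Replicates 1 to 4 and replicates 5 to 7 were known from earlier results on these data to stand apart in both groups, and the labels do not say what sets them apart, so values are also given within each set. The neutrophil miRNA miR-223-3p was at 142783 ± 40458 CPM with DMSO and 119314 ± 11586 CPM with 27HC (SD, n = 7 each). Of 4 neutrophil and myeloid names 2 were called lower with 27HC (both arms of miR-142a), of 3 lymphoid names 1 was called lower (miR-150-5p), and 0 of the tested erythroid, stromal, endothelial or liver names was called. Over all 239 tested names 8.79% were called lower and 3.77% higher. None of the listed marker names was at 0 counts in all libraries.

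Of the 10 members, 7 passed the filter on low counts: miR-17-5p, miR-17-3p, miR-18a-5p, miR-19a-3p, miR-19b-3p, miR-20a-5p and miR-92a-3p. The 3 others were opposite arms. miR-18a-3p had 72 counts in all, in 12 libraries, at 11.5 ± 11.9 CPM with DMSO and 26.0 ± 12.6 CPM with 27HC (SD, n = 7 each). miR-20a-3p had 11 counts in 5 libraries and miR-92a-1-5p had 8 counts in 5 libraries. These were too few to compare between the groups, since 1 count in the libraries that held miR-20a-3p or miR-92a-1-5p was worth at least 2.37 CPM.

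All 10 members together took 1.25 ± 0.114% of the counts with DMSO and 1.34 ± 0.149% with 27HC (SD, n = 7 each). The members were not at one level, although they leave the same transcript. miR-20a-5p was the most abundant, with a mean of 5107 CPM in DMSO libraries, 24th among the 1695 names. miR-18a-5p was the lowest of those tested, with a mean of 53.0 CPM. Mature miRNAs are all of about one length (21 to 23 bases here), but library preparation copies sequences with unequal efficiency, so the order is one of counts.

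With DMSO the order of mean CPM was miR-20a-5p, miR-19b-3p, miR-92a-3p, miR-19a-3p, miR-17-5p, miR-17-3p and miR-18a-5p. miR-20a-5p was above miR-19b-3p in 7 of 7 libraries, although their ranges overlapped. miR-19b-3p was above miR-92a-3p in 6 of 7 libraries. From miR-92a-3p down to miR-17-3p each member was above the next in 7 of 7 libraries with no overlap of ranges. miR-17-3p and miR-18a-5p were not separated, with miR-17-3p higher in 5 of 7.

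With 27HC the order differed in the places of miR-92a-3p and miR-18a-5p. miR-92a-3p was above miR-19b-3p in 6 of 7 libraries, against 1 of 7 with DMSO, and stood second to miR-20a-5p. miR-17-3p was above miR-18a-5p in 3 of 7 libraries, again without separation. By mean CPM miR-92a-3p was the 43rd most abundant name with DMSO and the 30th with 27HC, whereas miR-20a-5p was 24th in both.

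**Figure D1:**
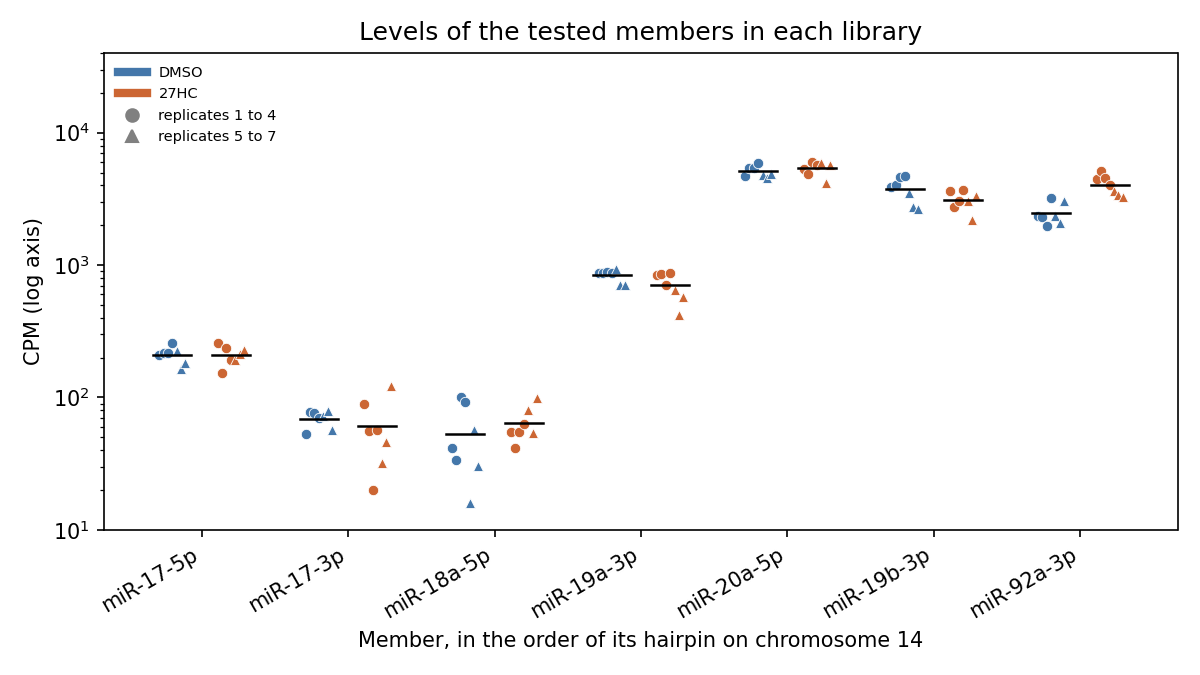
Level of each tested member in CPM (log axis), with 1 point per library, DMSO in blue and 27HC in orange, circles for replicates 1 to 4, triangles for replicates 5 to 7 and bars for the group means. The 7 libraries with 27HC lie above the 7 with DMSO for miR-92a-3p, while the groups overlap for the other 6 members.

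In vesicles from 27HC-treated neutrophils miR-92a-3p was at a higher CPM, and no other member passed the test. CPM is relative to the other counts of a library and is not an amount per vesicle. miR-92a-3p was at 2476 ± 482 CPM with DMSO and 4060 ± 674 CPM with 27HC (SD, n = 7 each). Its sequence lies in the last hairpin of the transcript and also in Mir92-2 on chromosome X. So 1 of 7 tested members was called higher and 0 lower, where 12.6% of all tested names were called, 3.77% higher and 8.79% lower (edgeR quasi-likelihood test, Benjamini-Hochberg adjusted p under 0.05). Across the 7 members the median log2 fold change was 0.00050, beside 0.010 over all 239 tested names. A higher fitted value with 27HC was found for 4 of the 7, beside 121 of the 239, though the values of miR-17-5p and miR-20a-5p turned below 0 with upper quartile scaling. The fitted values of the members thus had no common direction, and 1 call among 7 names is near the background share.

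miR-92a-3p, the seed family of its own, ranged from 1959 to 3238 CPM with DMSO, with a median of 2345, and from 3272 to 5107 CPM with 27HC, with a median of 4037. The groups did not overlap: 7 of 7 libraries with 27HC lay above the highest with DMSO. Ranges that did not overlap were found for 13 of the 239 tested names, or 5.44%. The log2 fold change was 0.71, with an SE of 0.13 (edgeR adjusted p 0.00123). Within replicates 1 to 4 it was 0.95 (SE 0.15, edgeR adjusted p 0.00116, with 17.4% of 242 names called), and within replicates 5 to 7 it was 0.47 (SE 0.15, edgeR adjusted p 0.139, with 6.06% of 198 names called). The direction was the same in both sets and the call was made in the first. The difference between the sets was −0.42 in log2 units (edgeR p 0.0844, adjusted 0.485), in a test that 0 of the 239 names passed after adjustment. The call was also lost with no filter on low counts (log2 fold change 0.65, edgeR adjusted p 0.0998).

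In the miR-19 family, miR-19b-3p ranged from 2666 to 4736 CPM with DMSO (median 3878) and from 2173 to 3692 CPM with 27HC (median 3070). Its 4 highest DMSO libraries were above every library with 27HC, but the rest overlapped. Its change was −0.27 in log2 units with an SE of 0.15 (edgeR adjusted p 0.300). miR-19a-3p, one base away, ranged from 705 to 930 CPM with DMSO (median 871) and from 421 to 873 CPM with 27HC (median 704). Here 4 libraries with 27HC lay below the lowest with DMSO. For this member the change was −0.24 in log2 units with an SE of 0.15 (edgeR adjusted p 0.388). Both fitted values were negative and similar in size, and neither passed the test. By set, miR-19b-3p was at −0.33 in replicates 1 to 4 and −0.054 in replicates 5 to 7, and miR-19a-3p at −0.030 and −0.50. These differences between the sets did not pass the test (edgeR adjusted p 0.525 for miR-19b-3p and 0.503 for miR-19a-3p).

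In the miR-17 family, miR-20a-5p ranged from 4556 to 5917 CPM with DMSO (median 4915) and from 4154 to 5968 CPM with 27HC (median 5658). The groups overlapped through most of their range. The fitted value was 0.075 in log2 units with an SE of 0.093 (edgeR adjusted p 0.738). miR-17-5p, which shares its seed, stood at a far lower level, from 165 to 259 CPM with DMSO (median 217) and from 153 to 258 CPM with 27HC (median 214). Its log2 fold change was 0.00050 with an SE of 0.16 and its sign changed with the scaling, so it has no direction here. The rank order of these seed mates was the same in every library, since their ranges did not come near each other.

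miR-17-3p, the opposite arm of miR-17-5p, ranged from 53.1 to 79.6 CPM with DMSO (median 72.2) and from 20 to 123 CPM with 27HC (median 55.7). Its spread was wider with 27HC, with libraries both above and below the DMSO range. But miR-17-3p rested on only 9 to 56 counts per DMSO library and 4 to 38 counts per library with 27HC. Its change was −0.19 in log2 units with an SE of 0.32 (edgeR adjusted p 0.818). miR-18a-5p, whose seed differs from that of miR-17-5p in 1 base, ranged from 16.0 to 101 CPM with DMSO (median 41.7) and from 41.7 to 98.4 CPM with 27HC (median 54.9). This rested on 2 to 74 counts per DMSO library and 7 to 23 counts per library with 27HC. For this member the change was 0.17 in log2 units with an SE of 0.35 (edgeR adjusted p 0.853), and the SEs of miR-17-3p and miR-18a-5p were the largest of the 7. miR-18a-5p was at −0.29 in replicates 1 to 4, and its difference between the sets was 1.48 (edgeR p 0.0386, adjusted 0.476).

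**Figure D2:**
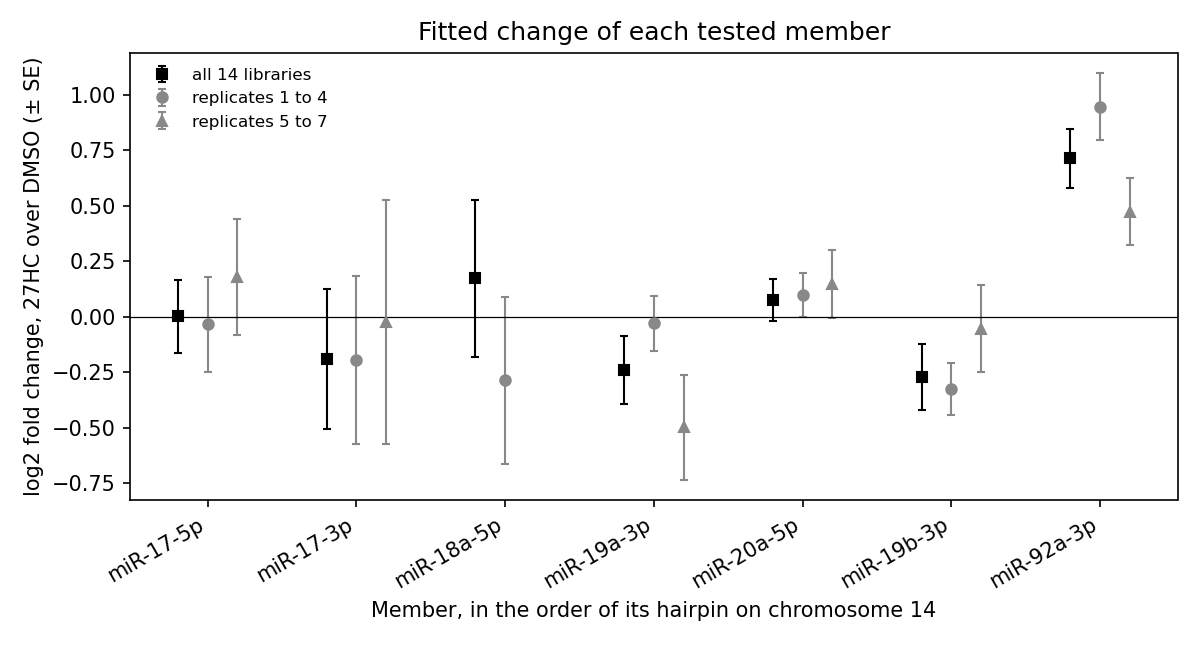
Fitted log2 fold change of each tested member, 27HC over DMSO, with its SE, from all 14 libraries (squares), replicates 1 to 4 (circles) and replicates 5 to 7 (triangles; miR-18a-5p was not tested there). miR-92a-3p stands at 0.71, 0.95 and 0.47, while the squares of the other members lie between −0.27 and 0.17.

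Whether the members kept their proportions was asked with ratios within each library, which do not depend on scaling between libraries. For each of the 21 pairs of tested members the log2 ratio (log2 CPM, prior count 2) was compared between the groups by an exact permutation test (two-sided), which has 3432 arrangements for 7 against 7 and cannot give a p below 0.000583. The ratio changed in 4 pairs at an adjusted p under 0.05, adjusted over the 21, and each of the 4 was a member set against miR-92a-3p. All 6 ratios to miR-92a-3p had a lower mean with 27HC over the 14 libraries, but that of miR-18a-5p was higher in replicates 5 to 7. Of the 15 ratios without miR-92a-3p, 0 passed (3 had an unadjusted p under 0.05). Among these, miR-19b-3p to miR-20a-5p passed when libraries were exchanged only within the replicate sets (adjusted exact permutation p 0.018).

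For 1 count of miR-92a-3p there were 1.61 to 2.76 counts of miR-20a-5p with DMSO (median 2.05) and 0.962 to 1.73 with 27HC (median 1.32). The log2 ratio fell by 0.65 (SE 0.14, exact permutation p 0.00175, adjusted 0.00918). miR-20a-5p was thus the more abundant of the pair in all DMSO libraries and in all but 1 of those with 27HC, by a smaller margin.

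miR-19b-3p, whose hairpin is next to that of miR-92a-1, was at 0.875 to 2.36 counts per count of miR-92a-3p with DMSO (median 1.5) and 0.538 to 1.01 with 27HC (median 0.819). The log2 ratio went from 0.58 ± 0.43 to −0.39 ± 0.32 (SD, n = 7 each), a difference of −0.98 (SE 0.20, exact permutation p 0.00175, adjusted 0.00918). The mean of this ratio was thus above 0 on the log2 scale with DMSO and below it with 27HC. The ratio of miR-19a-3p to miR-92a-3p ran from 0.232 to 0.453 with DMSO (median 0.374) and from 0.124 to 0.216 with 27HC (median 0.175). These ranges did not overlap, and the log2 ratio fell by 1.0 (SE 0.16, exact permutation p 0.000583, the smallest possible, adjusted 0.00918).

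The ratio of miR-17-5p to miR-92a-3p ran from 0.0594 to 0.111 with DMSO (median 0.0890) and from 0.030 to 0.0702 with 27HC (median 0.0531). The log2 ratio fell by 0.72 (SE 0.18, exact permutation p 0.00175, adjusted 0.00918). The ratio of miR-17-3p to miR-92a-3p had a difference of −1.05 (exact permutation p 0.0128, adjusted 0.0538), and that of miR-18a-5p to miR-92a-3p one of −0.34 (exact permutation p 0.386, adjusted 0.477). Both rest on members with few counts. The second joins opposite values, −1.07 in replicates 1 to 4 and 0.63 in replicates 5 to 7.

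The 4 changed ratios had the same direction in both replicate sets. In replicates 1 to 4 the differences were −0.86 (miR-20a-5p), −1.30 (miR-19b-3p), −1.0 (miR-19a-3p) and −1.02 (miR-17-5p), each at the smallest exact permutation p that 4 against 4 allows, 0.0286. In replicates 5 to 7 they were −0.36, −0.55, −0.99 and −0.32, where an exact permutation test of 3 against 3 cannot go below 0.1. The ratio of miR-19a-3p to miR-92a-3p was thus about as far apart in one set as in the other, and the other 3 were smaller in replicates 5 to 7. When libraries were exchanged only within the sets, 5 ratios passed, these 4 and that of miR-19b-3p to miR-20a-5p, each at an adjusted exact permutation p of 0.018. With sign flips within same-numbered libraries 0 ratios passed, where the smallest p before adjustment is 0.0156. The labels do not say that these libraries are paired.

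Among the other members, the ratio of miR-17-5p to its seed mate miR-20a-5p ran from 0.0362 to 0.0465 with DMSO (median 0.0403) and from 0.0312 to 0.0516 with 27HC (median 0.0393). The difference in log2 ratio was −0.074 (SE 0.12, exact permutation p 0.526, adjusted 0.614). The ratio of miR-19a-3p to miR-19b-3p ran from 0.184 to 0.265 with DMSO (median 0.226) and from 0.174 to 0.314 with 27HC (median 0.229), a difference of −0.020 in log2 ratio (exact permutation p 0.886). Within the sets it was 0.30 in replicates 1 to 4 and −0.44 in replicates 5 to 7, so the small pooled value joins opposite ones. The miR-19 members against miR-20a-5p gave −0.33 for miR-19b-3p (exact permutation p 0.0157, adjusted 0.0551) and −0.35 for miR-19a-3p (exact permutation p 0.0297, adjusted 0.0892). The first was called when libraries were exchanged only within the sets (exact permutation p 0.00286, adjusted 0.018) and without DMSO replicate 6 (adjusted 0.0465), DMSO replicate 7 (adjusted 0.0171) or 27HC replicate 1 (adjusted 0.0428). The second was called without 27HC replicate 2 (adjusted 0.0367). So the ratio of miR-19b-3p to miR-20a-5p lay close to the threshold, with −0.43 in replicates 1 to 4 and −0.19 in replicates 5 to 7. The arms of the miR-17 hairpin, 5p over 3p, stood at 2.07 to 3.93 with DMSO (median 3.11) and 1.87 to 11.75 with 27HC (median 3.39). The range with 27HC thus held the whole DMSO range.

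**Figure D3:**
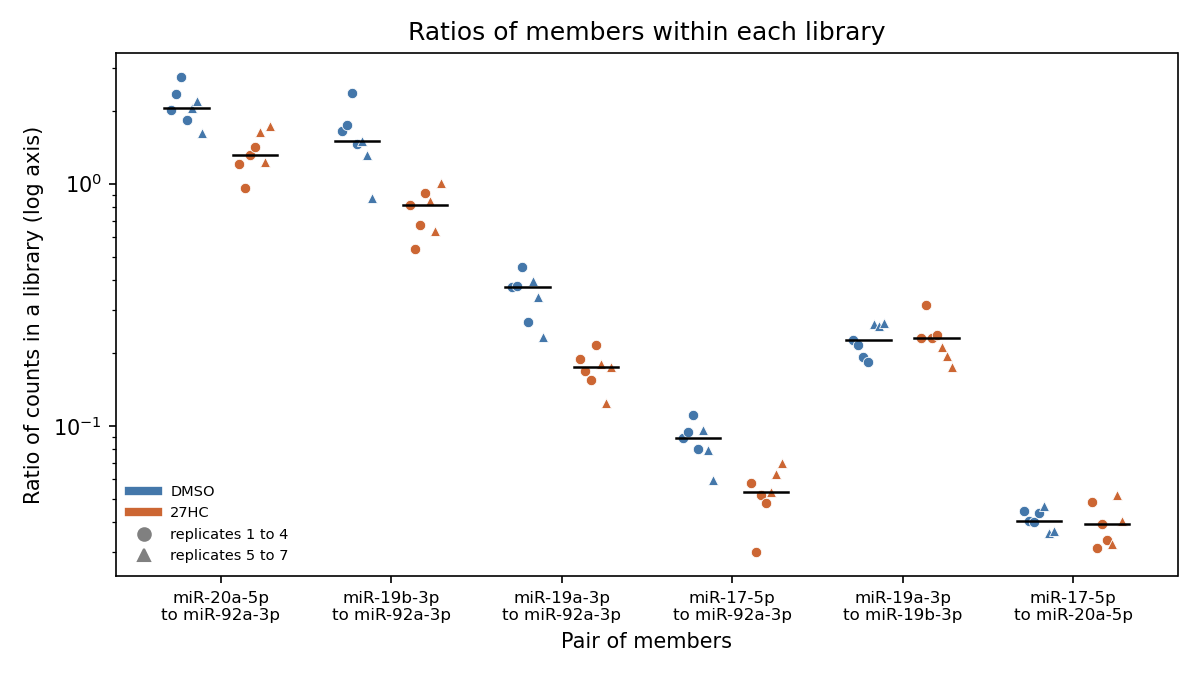
Ratio of the counts of pairs of members within each library (log axis), with 1 point per library, colours and symbols as in the plot of levels and bars for the group medians. The ratios to miR-92a-3p are lower with 27HC, with no overlap for miR-19a-3p, while miR-19a-3p to miR-19b-3p (medians 0.226 and 0.229) and miR-17-5p to miR-20a-5p (medians 0.0403 and 0.0393) overlap.

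As shares of the members' summed counts, miR-92a-3p had a mean of 19.9 ± 3.49% with DMSO and 29.9 ± 4.04% with 27HC (SD, n = 7 each). The mean share of miR-19b-3p was 29.7 ± 3.91% and 22.7 ± 2.28%, and that of miR-20a-5p 41.0 ± 1.83% and 39.6 ± 3.02%. miR-19a-3p took 6.72 ± 0.684% and 5.11 ± 0.843%, and miR-17-5p 1.68 ± 0.107% and 1.57 ± 0.314%. Shares sum to the whole, so a larger share of one member lowers the others. Without miR-92a-3p the members took 0.999 ± 0.0710% of all counts with DMSO and 0.940 ± 0.133% with 27HC. A library holds RNA from many vesicles, so a change in the mix of vesicles and a change in the miRNA per vesicle cannot be told apart.

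Co-variation of the members between libraries was described apart from the treatment, by Pearson r of log2 CPM after the mean of each treatment in each replicate set was removed (14 libraries). Over the 21 pairs the median r was 0.18, from −0.22 to 0.73. The middle 50% of all 28441 pairs of tested names lay between −0.25 and 0.26. Pairs that held miR-92a-3p had a median r of −0.081 (from −0.22 to 0.18), and the 15 pairs without it one of 0.32 (from −0.066 to 0.73). The points of such a correlation share their library and its depth.

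miR-19b-3p was at the centre of the higher values. With miR-19a-3p its r was 0.73 (exact permutation p 0.0479, adjusted over the 21 pairs 0.503) and Spearman's rho 0.66 (exact permutation p 0.0515, adjusted 0.373), with an r of 0.60 when the 2 libraries farthest from the median were left out. With miR-20a-5p its r was 0.72 (exact permutation p 0.0308, adjusted 0.503) and rho 0.60 (exact permutation p 0.0533, adjusted 0.373), with an r of 0.44 without the 2 farthest libraries. The seed mates miR-17-5p and miR-20a-5p had an r of 0.32 (exact permutation p 0.224) and a rho of 0.22 (exact permutation p 0.446). No pair passed at an adjusted p under 0.05, and the lowest was 0.503 for r.

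The names most like each member by this r, among the other 238 tested, were seldom members. For miR-92a-3p they were miR-484 (0.88), miR-328-3p (0.76) and miR-25-3p (0.76), the last of which has the same seed. Its nearest member was miR-20a-5p, 84th with an r of 0.18. For miR-19b-3p they were miR-322-3p (0.87), miR-143-3p (0.83) and miR-674-3p (0.81), and for miR-19a-3p they were miR-674-3p (0.89), miR-322-3p (0.82) and miR-181a-2-3p (0.78). The miR-19 members thus had a pair of their most like names in common, and were 6th and 7th to each other. For miR-20a-5p they were miR-143-3p (0.80), miR-378a-3p (0.76) and miR-674-3p (0.75), with miR-19b-3p 5th.

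The members with few counts had other neighbours. For miR-17-5p these were miR-466i-5p (0.81), miR-100-5p (0.66) and miR-1839-5p (0.63), for miR-17-3p miR-7b-5p (0.66), miR-107-3p (0.62) and miR-30e-5p (0.61), and for miR-18a-5p miR-30c-5p (0.74), miR-450b-3p (0.71) and miR-24-3p (0.69). Their nearest members were 12th (miR-19b-3p to miR-17-5p), 20th (miR-19b-3p to miR-17-3p) and 28th (miR-20a-5p to miR-18a-5p).

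**Figure D4:**
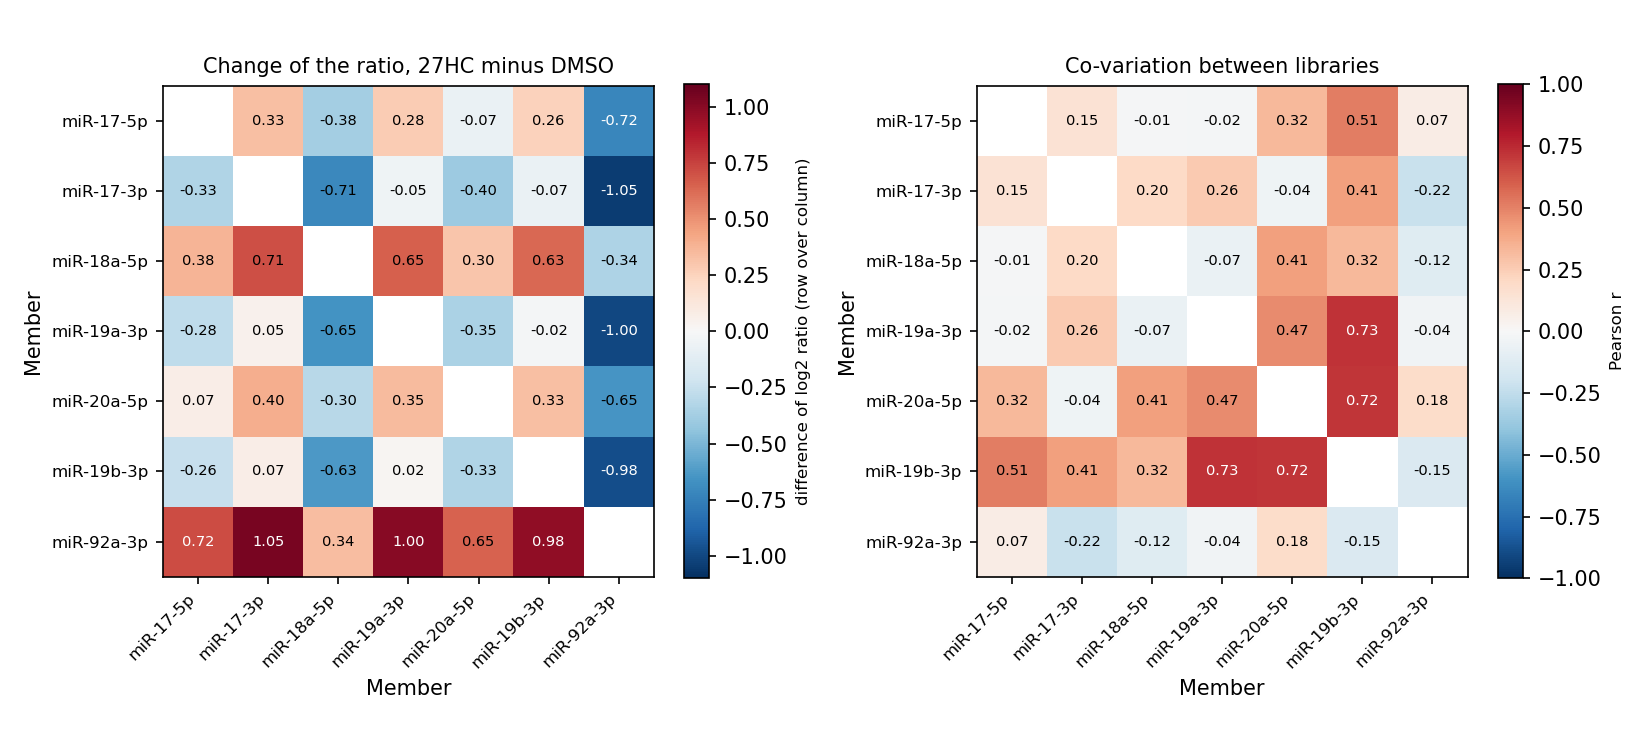
All pairs of tested members, with the change of the log2 ratio of row over column, 27HC minus DMSO, on the left and Pearson r between libraries with treatment and replicate set means removed on the right. On the left the column of miR-92a-3p holds the largest change and runs from −1.05 to −0.34. Pairs without it reach −0.71 (miR-17-3p over miR-18a-5p) and 0.65 (miR-18a-5p over miR-19a-3p). On the right r with miR-92a-3p lies between −0.22 and 0.18.

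The same seeds occur in paralogous clusters that arose by duplication, and in names outside these clusters such as miR-92b-3p. The sequences of several are shown because reads of some could be confused with members. The capitals mark the seed.
miR-106a-5p: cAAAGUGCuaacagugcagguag
miR-20b-5p: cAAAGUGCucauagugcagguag
miR-93-5p: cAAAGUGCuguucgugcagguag
miR-25-3p: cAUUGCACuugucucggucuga
miR-92b-3p: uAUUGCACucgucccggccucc

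miR-106a-5p differs from miR-17-5p only by U10A, and it had 16 counts in all libraries, against 813 for miR-17-5p. The cluster on chromosome X, from which miR-19b-3p and miR-92a-3p may also come, was scarce in its other products: 7 of its 8 listed names were in the table and 0 passed the filter. The highest were miR-20b-5p with 137 counts and miR-363-3p with 64 counts in all libraries. The remaining arms of the hairpins of miR-19a, miR-19b and miR-92a-2, 4 names, were at 2 to 5 counts each and were not tested. miR-92a-2-5p, the arm that marks the copy of miR-92a on chromosome X, had 4 counts. miR-92a-1-5p, the arm that marks the copy on chromosome 14, had 8 counts. These are too few to divide the counts of miR-92a-3p between the copies.

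The cluster in an intron of Mcm7 (miR-106b, miR-93 and miR-25) was far more abundant, through miR-93-5p at 31520 ± 2864 CPM and miR-25-3p at 37468 ± 2749 CPM with DMSO (SD, n = 7). With 27HC these were at 29107 ± 3424 and 38383 ± 3193 CPM (SD, n = 7). Of its 6 names 4 were tested and 0 called. miR-25-3p, with the seed of miR-92a-3p and 3 differing bases, stood at a log2 fold change of 0.035 with an SE of 0.081 (edgeR adjusted p 0.869). The other names with that seed that could be tested, miR-92b-3p and miR-32-5p, stood at 0.49 (SE 0.27, edgeR adjusted p 0.322) and 0.072 (SE 0.21, edgeR adjusted p 0.904). Among tested names with the seed AUUGCAC, then, miR-92a-3p was the 1 that was called.

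The Mcm7 cluster holds miRNAs of the miR-17 seed (miR-93-5p and miR-106b-5p) and miR-25-3p of the miR-92a seed. It so offers the same kind of ratio, taken here with miR-93-5p, as miR-106b-5p had 112 counts in all libraries and was not tested. These ratios were chosen after values were seen and are given as a description. Exact permutation tests were run on them, but p-values of ratios chosen in this way are no fair test and are not given. The log2 ratio of miR-92a-3p to miR-25-3p ran from −4.25 to −3.69 with DMSO and from −3.38 to −3.05 with 27HC, without overlap. The difference in means was 0.68, with 0.79 in replicates 1 to 4 and 0.54 in replicates 5 to 7. The log2 ratio of miR-20a-5p to miR-93-5p differed by 0.19 between the groups, with 0.13 and 0.26 in the sets.

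Within the Mcm7 cluster the log2 ratio of miR-25-3p to miR-93-5p was 0.25 ± 0.11 with DMSO and 0.40 ± 0.14 with 27HC (SD, n = 7 each). The difference was 0.15, with 0.21 in replicates 1 to 4 and 0.079 in replicates 5 to 7. Set against it, the log2 ratio of miR-92a-3p to miR-20a-5p differed by 0.65, so the values for the clusters were 0.49 apart, with 0.65 and 0.28 in the sets.

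The members differ in base composition. miR-92a-3p had the highest GC content of those tested, 57.1%, and miR-19a-3p the lowest, 34.8%, with miR-19b-3p and miR-20a-5p at 39.1%, miR-18a-5p at 43.5%, miR-17-5p at 47.8% and miR-17-3p at 54.5%. Over the 201 of 239 tested names with a sequence, Spearman's rho of GC content with log2 fold change was 0.28 and Pearson's r was 0.24, a description across names that share their libraries. The 47 names within 5 percentage points of the GC content of miR-92a-3p had a median log2 fold change of 0.019, and 28 of them were higher with 27HC. The part of GC content in the change of miR-92a-3p was not tested.

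Markers of red blood cells, which marrow preparations can hold, were mixed. Their summed level, with miR-486b-5p left out because its counts equal those of miR-486a-5p in 14 of 14 libraries, was 505 to 1062 CPM with DMSO and 730 to 1126 CPM with 27HC. miR-486a-5p stood at a log2 fold change of 0.34 with an SE of 0.16 (edgeR adjusted p 0.231), and with its copy was the marker that could be tested. The others had few counts and were not. With DMSO and 27HC, miR-451a was at 27.0 ± 8.34 and 43.5 ± 24.3 CPM, miR-144-3p at 25.8 ± 11.5 and 46.8 ± 22.7 CPM, and miR-144-5p at 17.02 ± 4.01 and 12.09 ± 12.01 CPM (SD, n = 7 each). Of the 5 erythroid names 0 were at 0 counts in all libraries. Their part in the higher level of miR-92a-3p was not tested.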

How the data were processed

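The authors deposited raw counts, whole numbers per mature miRNA name and library. Per the labels' protocols, vesicle RNA came from the miRNeasy Micro kit, and the QIAseq miRNA kit turned it into libraries. The submitters' processing notes name GRCm39/mm39, R 4.1.2, edgeR and limma. The aligner, the counting tool and the use of molecular identifiers are not given in the sources used here, so a count may be a read or a molecule, and intervals and floors cover counting error only.

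All 1695 names in 14 libraries were fitted in edgeR 4.0.16 (quasi-likelihood test, R 4.3.3), with treatment as the only term, TMM factors and filterByExpr (minimum count 10, minimum total 15). p-values were Benjamini-Hochberg adjusted over the 239 names kept, and calls had an adjusted p under 0.05. CPM values use TMM library sizes. Ratios and correlations use log2 CPM with a prior count of 2. Permutation tests are exact and two-sided. DESeq2 1.42.0 and limma-voom 3.58.1 were alternatives, beside other scalings, filters, terms and libraries left out. The fit and the ratio test were tested on simulated data.

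The members, the related names, the marker lists and the replicate sets were chosen with earlier results of these data known. The miRNAs named are the members, other arms of their hairpins, the paralogous clusters, names with a shared seed, the 3 names most like each tested member, and markers. The permutation p of the correlations and the paralogue ratios were added later. Sequences and coordinates are from RefSeq (GRCm38.p6) and GENCODE M21, a build other than the one in the submitters' notes, so they describe the annotation rather than the counted reads.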

Additional observations from a re-analysis of the deposited data

How the results depend on the processing

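The fold change of miR-92a-3p kept its direction in all 29 alternative fits and its call in 27 (0.63 to 0.95). It was not called with no filter on low counts (0.65, edgeR adjusted p 0.0998) or in replicates 5 to 7 alone (0.47, edgeR adjusted p 0.139), and there the number of members called higher was 0. With each of the 14 libraries left out in turn it ran from 0.66 to 0.84 (edgeR adjusted p 0.000361 to 0.00510), with 1 member called higher each time. DESeq2 gave 0.75 (adjusted p 3.39e-06) and limma-voom 0.73 (adjusted p 0.00149). No member was called lower in any of the 29 fits. The number of pairs with a changed ratio was 4 to 6 with 1 library left out and 5 with libraries exchanged within the replicate sets. Over 20 alternatives miR-19b-3p to miR-20a-5p was among these pairs 4 times and miR-19a-3p to miR-20a-5p 1 time. The number was 0 in replicates 1 to 4, 0 in replicates 5 to 7 and 0 when the replicate block was used by sign flips within same-numbered libraries (adjusted p 0.131 for the 4 pairs), where the smallest unadjusted p is 0.0286, 0.1 and 0.0156. With the replicate block in the edgeR fit, miR-92a-3p stood at 0.72 (edgeR adjusted p 0.00322) and 37 names were called in place of 30. The replicate numbers share no stated source, same-numbered libraries had correlations of deviations of 0.069 to 0.60, and 6 of 14 libraries correlated best with their own number. miR-17-5p changed sign with upper quartile factors (−0.074), library totals (−0.014), without miR-16-5p (−0.0018), with no filter (−0.097), with the replicate block (−0.0062), in replicates 1 to 4 (−0.035), with near-identical names summed (−0.0077), in limma-voom (−0.0014) and with single libraries left out (−0.072 to 0.11). miR-18a-5p was at −0.29 in replicates 1 to 4, miR-20a-5p at −0.010 with upper quartile factors and −0.021 with no filter, and the ratio of miR-17-5p to miR-20a-5p at 0.039 in replicates 5 to 7. The cause of these changes was not tested. With no filter the median of all names was −0.19. Depth limits what can be said of miR-17-3p, miR-18a-5p and the 3 members not tested.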
